A study of Mus musculus with 11 samples.

Results

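The genes described here encode the nuclear subunits of the respiratory complexes of the mitochondrial inner membrane. They were chosen by symbol: the Nduf genes of series a, b, c, s and v (complex I), Sdha to Sdhd (complex II), the Uqcr genes and Cyc1 (complex III), the Cox4 to Cox8 genes (complex IV) and the Atp5 genes (complex V, the ATP synthase). Among RefSeq's mouse genes, 106 symbols matched, of which 88 were protein coding and 18 pseudogenes, and 75 had a probe set among the 14351 genes measured. By complex these were 33, 4, 8, 16 and 14 genes from I to V. Ndufa4 and its paralog stayed with complex I by the symbol rule, although the Ndufa4 protein is now counted with cytochrome oxidase. The 13 protein coding genes without a probe set were Ndufa4l2, Ndufa11, Ndufb1, Ndufb4, Ndufb4b, Ndufb4c, Ndufv2, Uqcrb, Cox7b, Cox7c, Atp5g2, Atp5l and Atp5md, and they are not analysed here.

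Complexes I to IV pass electrons from NADH and succinate to oxygen, and complexes I, III and IV pump protons out of the mitochondrial matrix while doing so. Complex V lets the protons back through a membrane ring, and the turning ring drives a central stalk inside the F1 head, where ATP is made. A few subunits of each complex carry the cofactors or the catalytic site, and the other subunits, called supernumerary in complex I, surround and stabilise them.

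Lung RNA of Balb/c mice was measured on 11 one-colour Affymetrix arrays. Wild-type mice, bought from a commercial supplier, were compared with 4ebp1-/-/4ebp2-/- mice of a separate colony, which lack Eif4ebp1 and Eif4ebp2, repressors of the cap-binding initiation factor eIF4E. Both genotypes ate the purified diet AIN-93M from 5 weeks of age. Total RNA was measured on 3 wild-type and 3 knockout arrays, and polysomal RNA, the pool of gradient fractions 7 to 10 of 10 with at least 3 ribosomes per transcript, on 2 wild-type and 3 knockout arrays. The knockout is not limited to one tissue by the labels, and genotype and colony cannot be told apart. No label ties an array to a mouse of its own, so the p-values cover only array-to-array spread, some of which may be technical. In whole lung, fewer cells of a type and less RNA per cell cannot be told apart.

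Values are log2 and gene differences are log2 differences with their standard error (SE) from limma, with p-values adjusted by the Benjamini-Hochberg method over all 13802 probe sets tested, and a call is an adjusted p under 0.05. A probe set was tested where it reached a log2 value of 5 on at least 2 arrays. Of the 75 genes 69 were tested. The other 6 lay below the filter: Cox4i2, Cox7b2, Cox8a, Cox8b, Cox8c and Atp5g1. Among the 75, 74 had 1 probe set each, and the row used for Cox6b2, which had 2, was an exact repeat of another row. Eif4ebp2 was lower in knockout by a log2 difference of -1.90 in total RNA (SE 0.25, adjusted p = 0.0016) and Eif4ebp1 by -0.40 (SE 0.11, adjusted p = 0.033), and where their probes lie relative to the deleted parts was not analysed here. The third wild-type total array stood below the other 2 for 63 of the 69 subunits, by a median of -0.27, against -0.05 over all genes tested, so total RNA results are also given without it.

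Each of the 5 complexes had at least 1 subunit called higher in total RNA of knockout lung, and none was called lower. Of the 69 tested, 29 rose (42.0%), none fell and 40 did not pass, against 17.2% of all genes tested that rose and 5.97% that fell. The median difference of the subunits was 0.38, beside 0.085 over all genes, and 66 of the 69 lay above 0. For 48 of the 69 the knockout arrays did not overlap the wild-type arrays, always with knockout higher (69.6%), while of all 8085 genes tested 2264 stood wholly higher and 1130 wholly lower. Complex V had the highest median, 0.65, with 8 of 13 called, followed by complex II at 0.46 (1 of 4), complex III at 0.36 (4 of 8), complex I at 0.35 (14 of 33) and complex IV at 0.23 (2 of 11). The share called in complex IV, 18.2%, was near the 17.2% of all genes, and complex II rested on 1 call. Without the third wild-type array 22 subunits rose and none fell, the median was 0.28, and the median of complex V was 0.46. Of all 8085 genes tested 1460 rose without that array, beside 1393 with all arrays. Leaving out the first wild-type total array gave 15 calls, and leaving out the first, the second or the third knockout total array gave 17, 13 and 17. In the same order 936, 1065, 783 and 1020 of all 8085 genes rose, so the background fell as well. The arrays also carry a replicate set letter: within set A (1 knockout and 2 wild-type arrays) the median was 0.23, with 59 of 69 above 0, and within set B (2 knockout and 1 wild-type, the third) it was 0.56, with 69 of 69 above 0. With equal array medians, which moved the median of all genes to -0.014, 19 subunits rose and none fell, with a median of 0.28. Under that scaling 1048 of all 8085 genes rose and 852 fell.

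**Figure D1:**
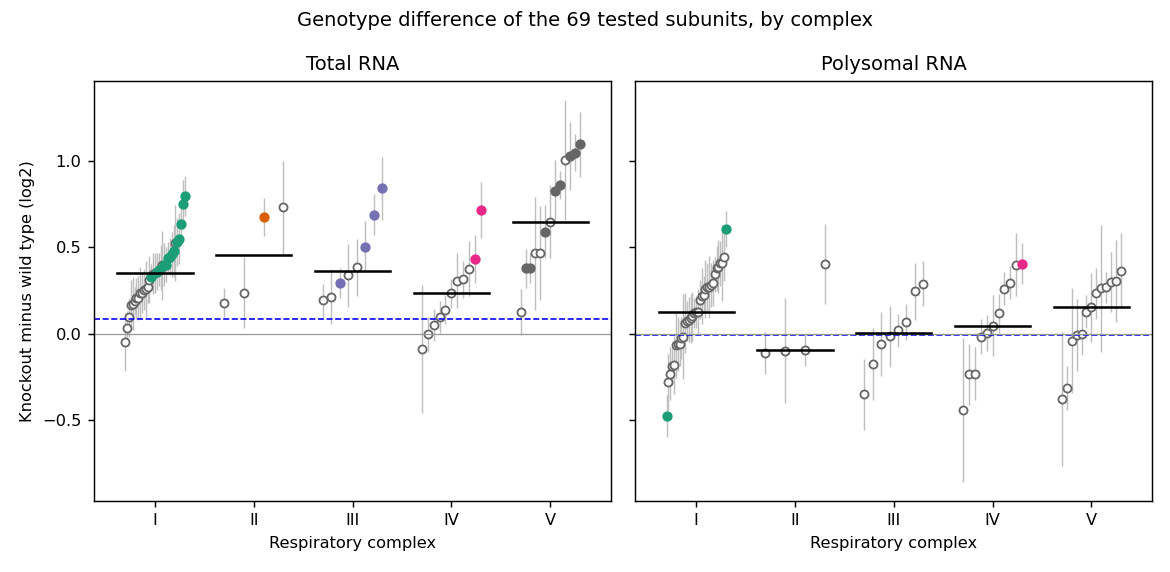
Knockout minus wild type (log2, y axis) for the 69 tested subunits by complex (x axis), in total RNA (left) and polysomal RNA (right); each point is 1 gene with its limma standard error, filled where the adjusted p was under 0.05, the bar is the complex median and the dashed line the median of all genes tested. In total RNA 29 points are filled, all above 0, and in polysomal RNA 3 are filled.

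The clearest increases in total RNA were in the ATP synthase. Atp5d, the delta subunit of the central stalk, read 10.54, 10.68 and 10.78 on the wild-type arrays and 11.70, 11.72 and 11.73 on the knockout arrays. The groups stood apart by far more than their own spread, with a difference of 1.05 (SE 0.11, adjusted p = 0.00054), or 2.07-fold. Atp5k, subunit e of the membrane part, read 11.28, 11.43 and 11.46 in wild type and 12.20, 12.24 and 12.32 in knockout, a difference of 0.86 (SE 0.08, adjusted p = 0.00037). Atp5h, subunit d of the peripheral stalk, read 9.58, 10.18 and 10.35 against 11.004, 11.05 and 11.35, a difference of 1.10 (SE 0.19, adjusted p = 0.0041) and the largest of all members. Atp5e, the epsilon subunit of the central stalk, read 10.26, 10.80 and 10.83 against 11.55, 11.62 and 11.82, and rose by 1.03 (SE 0.20, adjusted p = 0.0063). Atp5o, which joins the peripheral stalk to the F1 head, was at 11.02, 11.04 and 11.05 on the knockout arrays and spread from 9.74 to 10.62 in wild type, a difference of 0.83 (SE 0.18, adjusted p = 0.010). None of these 5 genes overlapped between genotypes.

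The alpha, beta and gamma subunits were less settled. Atp5b, the catalytic beta subunit, read 9.35, 10.43 and 11.14 in wild type and 11.23, 11.32 and 11.39 in knockout: its difference of 1.01 was as large as that of Atp5d, but the wild-type arrays alone spanned more than that (SE 0.35, adjusted p = 0.065). Atp5a1, the alpha subunit, rose by 0.38 (SE 0.11, adjusted p = 0.038), a call lost without any 1 of 7 arrays. Atp5c1, the gamma subunit of the central stalk, differed by 0.47 (SE 0.27, adjusted p = 0.24), and the third wild-type array, at 12.27, stood below the other 2, at 13.25 and 13.63. Among the genes of subunit c, which forms the rotating ring, Atp5g3 rose by 0.38 (SE 0.09, adjusted p = 0.013), lost without the second knockout array, and Atp5g1 lay below the filter at 2.75 to 3.22 on all arrays. The smallest difference in the complex was that of Atp5j, coupling factor 6 of the peripheral stalk, at 0.13 (SE 0.13, adjusted p = 0.54).

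In complex I the conserved core, which holds the flavin and the iron-sulfur clusters, had 5 of its 6 measured genes called higher, with a median of 0.50. These role groups were drawn up from textbook functions after values had been seen. Ndufs3, a core subunit of the arm in the matrix, rose by 0.75 (SE 0.14, adjusted p = 0.0061), and Ndufs7, which carries the last iron-sulfur cluster before quinone, by 0.44 (SE 0.09, adjusted p = 0.0090). The exception was Ndufs1, the large iron-sulfur subunit: its arrays read 9.23, 9.50 and 9.85 against 9.39, 9.39 and 9.66, overlapping throughout, with a difference of -0.05 (SE 0.17, adjusted p = 0.87). Among the supernumerary genes 4 of 12 Ndufa genes (33.3%), 3 of 11 Ndufb and Ndufc genes (27.3%) and 2 of the other 4 rose. Of all genes tested 17.2% rose and 5.97% fell. Ndufa3, a small membrane-arm subunit, led them with 12.52, 12.73 and 12.77 against 13.25, 13.26 and 13.42, a difference of 0.64 (SE 0.09, adjusted p = 0.0023).

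Complexes II and III each had genes whose genotypes were well apart. Sdhc, a membrane anchor of succinate dehydrogenase, read 8.88, 9.12 and 9.24 in wild type and 9.69, 9.71 and 9.86 in knockout, a difference of 0.67 (SE 0.11, adjusted p = 0.0036). Sdhb, its iron-sulfur subunit, differed by 0.73 (SE 0.27, adjusted p = 0.082), with the third wild-type array at 9.70 and the others at 10.75 and 11.001, and Sdha, the flavoprotein, by 0.18 (SE 0.08, adjusted p = 0.15). Uqcrc1, a core protein of complex III, read 8.68, 9.09 and 9.56 against 9.89, 9.94 and 10.04, and rose by 0.84 (SE 0.18, adjusted p = 0.011). Uqcrh, the hinge protein that binds near cytochrome c1, read 10.16, 10.35 and 10.38 against 10.90, 10.91 and 11.15, and rose by 0.69 (SE 0.12, adjusted p = 0.0040). The redox subunits Cyc1 and Uqcrfs1, the Rieske iron-sulfur protein, differed by 0.39 (SE 0.16, adjusted p = 0.12) and 0.34 (SE 0.18, adjusted p = 0.21).

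Cytochrome oxidase had the smallest share of genes called, 2 of 11 (18.2%, beside 17.2% of all genes tested). Cox6b2, an isoform best known from testis, read 5.28, 5.60 and 5.62 in wild type and 5.95, 6.23 and 6.48 in knockout, a difference of 0.72 (SE 0.16, adjusted p = 0.013) that lost its call without the second knockout array. Cox4i1, the general isoform of subunit 4, rose by 0.43 (SE 0.14, adjusted p = 0.049), a call lost without any 1 of 10 arrays. The general isoforms Cox6a1, Cox6b1 and Cox7a2 differed by -0.01, 0.32 and 0.23 (adjusted p = 0.98, 0.060 and 0.077). Of the isoforms known from heart and skeletal muscle, Cox6a2 stayed between 7.26 and 7.58 on all 11 arrays and Cox7a1 differed by -0.09 (SE 0.37, adjusted p = 0.89), the lowest difference of all members.

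Of the 29 calls, 12 held without each array in turn and under the other scalings, filters and fits tried at the same threshold, among them Ndufa3, Ndufs3, Ndufs7, Sdhc, Uqcrc1, Uqcrh, Atp5d, Atp5e, Atp5h, Atp5k and Atp5o.

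**Figure D2:**
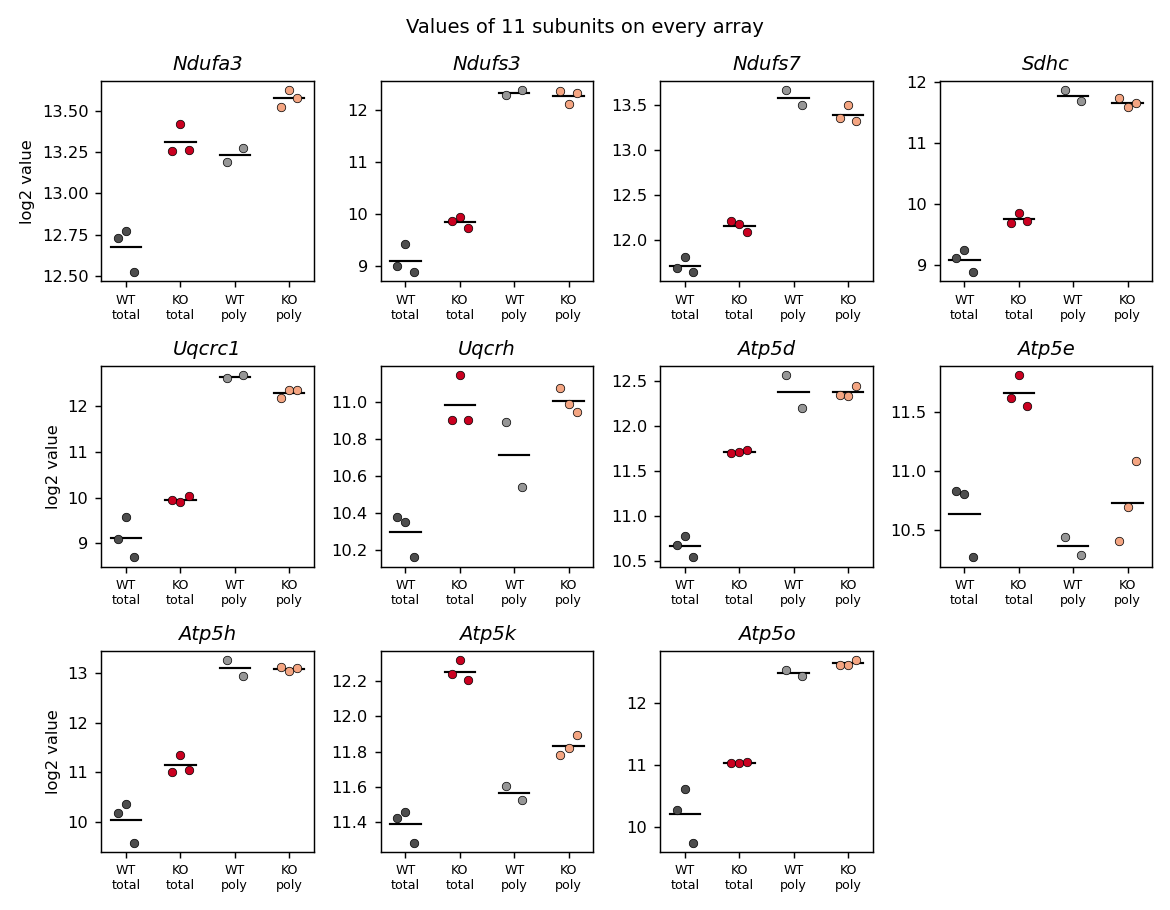
Log2 value (y axis, own scale in each panel) on every array for 11 of the 12 subunits whose call in total RNA held without each array in turn, by group (WT wild type, KO knockout, poly polysomal); each point is 1 array and the bar is the group mean. The total RNA groups do not overlap in any panel, as for Atp5d at 10.54 to 10.78 in wild type and 11.70 to 11.73 in knockout.

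Promoter sequence was examined because 29 of the 69 tested subunits rose in total RNA, while 40 did not pass. Of the 75 measured genes 60 had a promoter in the RefSeq table (build GRCm38.p6, 250 bases before to 50 after a start), among them 24 of the 29 that rose. They were searched on both strands for cores of 3 factors known to bind promoters of respiratory genes: NRF-1 (GCGCATGCG), ETS factors such as GABP (CCGGAAG) and YY1 (AAGATGGCG). The NRF-1 core was found for 5 of 60 genes (8.33%), beside 4.15% of the tested genes with a promoter and 1.95% of all genes with one. The ETS core was found for 15 of 60 (25.0%, beside 21.0% and 9.93%), and the YY1 core for 7 of 60 (11.7%, beside 3.57% and 1.64%). Among the 24 that rose, 4, 8 and 4 held the respective cores, and among the 32 other tested members 1, 6 and 3 did. A match of letters is a description and shows no binding. The 110 bases before the start are shown for the genes just named that have a core there, 5′ to 3′ on the strand of the gene, with the cores in capitals (CTTCCGG is the ETS core read on the other strand). They lie at chr2:174464102-174464211 (Atp5e), chr11:115419920-115420029 (Atp5h), chr5:108434400-108434509 (Atp5k), chr2:90904722-90904831 (Ndufs3) and chr4:116075071-116075180 (Uqcrh), all on the minus strand.
Atp5k, NRF-1 core on both strands: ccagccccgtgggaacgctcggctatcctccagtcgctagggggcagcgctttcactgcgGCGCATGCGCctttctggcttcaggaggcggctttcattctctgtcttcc
Atp5h, ETS core: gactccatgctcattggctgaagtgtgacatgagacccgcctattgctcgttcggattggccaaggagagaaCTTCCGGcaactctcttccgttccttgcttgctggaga
Atp5e, ETS core: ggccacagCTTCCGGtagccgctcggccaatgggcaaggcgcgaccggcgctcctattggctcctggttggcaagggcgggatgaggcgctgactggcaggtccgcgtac
Ndufs3, ETS core: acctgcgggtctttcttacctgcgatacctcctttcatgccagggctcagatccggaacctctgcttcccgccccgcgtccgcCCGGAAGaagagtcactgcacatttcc
Uqcrh, ETS core: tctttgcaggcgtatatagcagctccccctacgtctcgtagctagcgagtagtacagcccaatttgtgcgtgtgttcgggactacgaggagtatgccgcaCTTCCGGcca

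Some markers of cell types were called in total RNA as well, where 17.2% of all genes tested rose and 5.97% fell. Lists were summed over their measured genes on the linear scale and are given as log2. Heart muscle, whose cells are rich in mitochondria, had 3 of 11 tested markers called higher (Tnnc1 1.09, Myl4 1.29 and Actc1 0.77), and its summed level was 11.29 to 11.96 on wild-type and 11.9 to 12.5 on knockout total arrays. The brown fat sum was 7.77 to 9.72 on wild-type and 9.88 to 10.3 on knockout total arrays, with 1 of 3 tested markers higher, and its defining gene Ucp1 was at 2.55 to 2.95 on all total arrays. The members of that list did not move together. Cfd read 6.92 to 8.99 on wild-type and 9.63 to 9.84 on knockout total arrays. Adipoq overlapped between genotypes, Cidea averaged 3.85 in wild type and 3.62 in knockout, and Elovl3 and Dio2 lay below the filter. Endothelial markers rose for 6 of 10 (sum 13.9 to 14.1 and 14.6 to 14.7) and alveolar type 2 markers, which mark the labelled tissue, for 3 of 7 (sum 16.6 to 17.3 in wild type and 17.5 on each knockout total array). Macrophage markers were called higher for 4 and lower for 3 of 8 (sum 14.2 to 14.5 and 13.8 to 14.1), and 1 of 2 red cell markers was higher (7.86 to 8.39 and 9.54 to 10.4). The third wild-type array had the lowest sum for heart muscle, brown fat and alveolar type 2 cells. Their part in the subunit differences was not tested.

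On polysomes the subunits differed little between genotypes. Of the 69, 2 rose (2.90%), 1 fell (1.45%) and 66 did not pass, below the 8.36% of all genes that rose and the 6.77% that fell. The median was 0.10, beside -0.008 over all genes, and 33 of the 69 overlapped between genotypes, while 26 stood wholly higher (37.7%) and 10 wholly lower (14.5%) in knockout, beside 23.8% and 25.2% of all genes tested. Without the third wild-type total array, which enters through the shared spread, 6 rose and 1 fell, and without either wild-type polysomal array 1 rose and none fell. Of all 8085 genes 889 rose and 755 fell without the third wild-type total array. Without the first wild-type polysomal array 353 rose and 355 fell, and without the second 352 and 267. Among the marker lists, 3 of 8 macrophage genes fell on polysomes (sum 15.6 on both wild-type and 14.8 to 15.1 on the knockout arrays) and 1 of 2 red cell genes rose (sum 10.4 on both wild-type and 11.8 to 12.9 on the knockout arrays). Of the heart muscle genes 1 of 11 rose, and 1 of 3 brown fat genes and 1 of 10 endothelial genes fell, and no alveolar type 2 gene was called. Their part in the subunit values was not tested.

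Ndufb3, a supernumerary membrane-arm subunit of complex I, read 10.34 and 10.58 on the wild-type and 10.99, 11.01 and 11.19 on the knockout polysomal arrays. Its genotypes stood apart, with a difference of 0.61 (SE 0.10, adjusted p = 0.0057), or 1.52-fold, and the call held without each array in turn. In total RNA Ndufb3 differed by 0.27 (SE 0.09, adjusted p = 0.065). Cox6b1, the general isoform of subunit 6B, rose by 0.41 (SE 0.12, adjusted p = 0.048), a call lost without any 1 of 10 arrays. Ndufv1, which binds NADH and the flavin, read 12.92 and 12.99 in wild type and 12.36, 12.51 and 12.56 in knockout, without overlap. It fell by 0.48 (SE 0.12, adjusted p = 0.029), a call lost without either wild-type polysomal array or without the first or the third knockout polysomal array.

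On polysomes the measured core genes of complex I and the 9 genes of the catalytic core lay below 0. Most, but not all, of the other members lay above, by amounts that mostly did not pass the test. In complex III the core protein Uqcrc2 stood at 0.02. All 6 measured core genes of complex I were below 0 (median -0.13), also with quantile normalization and equal array medians, and only Ndufv1 was called. Equal array medians also moved the median of all genes down, from -0.008 to -0.052. The signs were not firm: leaving out 1 array took some of these genes above 0, among them Ndufs1 (up to 0.056) and Ndufs3 (up to 0.016). Of the 12 Ndufa genes 10 were above 0 (median 0.25), and of the 11 Ndufb and Ndufc genes 10 (median 0.12). The 9 genes of the catalytic core over complexes I, II, III and V (among them Ndufv1, Ndufs1, Sdha, Sdhb, Uqcrfs1, Cyc1, Atp5a1 and Atp5b) were all below 0, with a median of -0.10, and of the other 60 members 43 were above and 17 below 0, with a median of 0.13. Leaving out 1 array also took Sdhb and Cyc1 above 0, to at most 0.022 and 0.00094. The difference between the catalytic core and the other members was not tested.

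The interaction asks whether the genotype difference on polysomes was another than in total RNA, and it was lower for 13 subunits and higher for none. The 13 made up 18.8% of the 69, beside 14.2% of all genes that were lower and 8.06% that were higher, so the share of lower calls was near the background. Without the second wild-type polysomal array 7 were lower, beside 672 of all 8085 genes tested. The median was -0.28, beside -0.13 over all genes. By complex 6 of 33, 1 of 4, 1 of 8, 1 of 11 and 4 of 13 were lower from I to V. All 13 had risen in total RNA: 12 did not pass on polysomes, and Ndufv1 fell there. The interaction subtracts the total RNA difference, so a high total RNA difference by itself lowers it, and the overlap of these calls is partly built in. The same overlap was not counted over all genes. The interaction and the other differences share arrays, so they are not independent of each other.

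Atp5d is an example. Its polysomal values were 12.20 and 12.57 in wild type and 12.34, 12.35 and 12.45 in knockout, fully overlapping, against the rise of 1.05 in total RNA described above. The interaction was -1.05 (SE 0.16, adjusted p = 0.0048). Ndufv1 combined a rise of 0.45 in total RNA (SE 0.11, adjusted p = 0.017) with its lower polysomal level, for an interaction of -0.92 (SE 0.16, adjusted p = 0.0067). Sdhc gave -0.79 (SE 0.17, adjusted p = 0.012), Ndufs7 -0.63 (SE 0.14, adjusted p = 0.014) and Atp5k -0.60 (SE 0.12, adjusted p = 0.011). These calls held without each array in turn.

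Another 7 were less firm. Uqcrc1 at -1.20 (SE 0.27, adjusted p = 0.016) and Atp5a1 at -0.70 (SE 0.17, adjusted p = 0.020) lost their call without the second wild-type polysomal array, and Atp5h at -1.11 (SE 0.28, adjusted p = 0.024) without any 1 of 3 arrays. Ndufs8 (-0.83), Ndufs3 (-0.81), Ndufa10 (-0.76) and Cox4i1 (-0.67) lost theirs without any 1 of 7, 6, 5 and 9 arrays. In the conserved core of complex I 5 of 6 genes were lower, Ndufs1 being the exception at -0.02 (SE 0.25, adjusted p = 0.96), and in the supernumerary genes of the complex only Ndufa10 was. Of all genes tested 14.2% were lower. Atp5b had the lowest value of all members, -1.39, with an SE of 0.52 (adjusted p = 0.086).

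**Figure D3:**
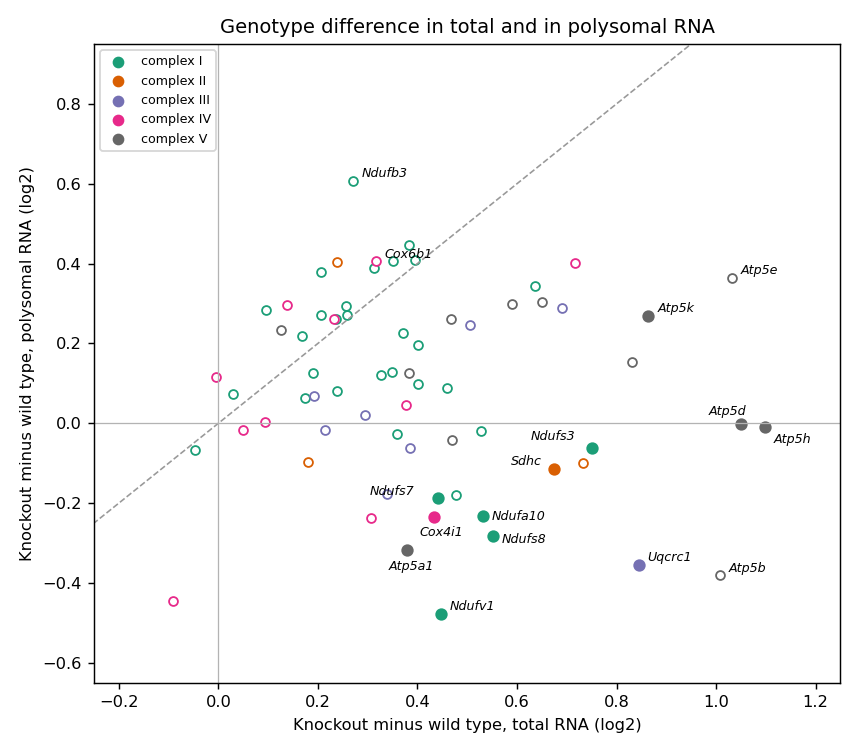
Genotype difference (log2, knockout minus wild type) of 68 of the 69 subunits in total RNA (x axis) and in polysomal RNA (y axis), coloured by complex and filled where the interaction had an adjusted p under 0.05; the dashed line marks equal differences. The 12 filled points lie below the line, for example Atp5d at 1.05 in total RNA, and Ndufb3 lies above it at 0.27 and 0.61.

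Subunits differed widely in how polysomal RNA compared with total RNA, from -2.09 to 3.92 in wild type and from -2.33 to 2.92 in knockout, leaving aside Cox6b2, which passed the filter through its total RNA arrays alone. In wild type 41 of the 69 (59.4%) were higher in polysomal RNA, 13 lower (18.8%) and 15 did not pass, beside 44.5% higher and 27.9% lower of all genes. In knockout 39 (56.5%) were higher, 17 lower (24.6%) and 13 did not pass, beside 39.5% and 25.7%. The medians were 0.58 and 0.48, beside 0.22 and 0.13 over all genes. With quantile normalization, which moved the median of all genes in wild type from 0.22 to 0.059, the splits were 33 higher and 18 lower in wild type and 30 and 23 in knockout, with medians of 0.19 and 0.21. Both RNA kinds were scaled to similar array medians by the deposited normalization, so these are differences relative to the other RNAs of each pool.

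Both genotypes shared most calls: 38 genes were higher and 13 lower in both, Cox6b2 being among the lower. Shared calls were not counted over all genes. Across all 8085 genes tested the wild-type and knockout differences also correlated (Pearson r = 0.927), so the sharing is not particular to the subunits. Atp5b had the largest difference, reading 9.35, 10.43 and 11.14 on total and 14.05 and 14.39 on polysomal wild-type arrays, 3.92 apart (SE 0.39, adjusted p = 9.8e-06), and 2.53 apart in knockout (SE 0.35, adjusted p = 0.00013). Uqcrc1 followed at 3.54 in wild type (SE 0.20, adjusted p = 3.0e-07), with 12.63 and 12.68 on polysomal and 8.68 to 9.56 on total arrays. Ndufs3 (3.23), Atp5pb, subunit b of the peripheral stalk (3.13), Atp5h (3.06) and Sdhc (2.69) were also much higher on polysomes in wild type. The 9 catalytic core genes were all higher on polysomes in wild type (median 1.99), and 8 of the 9 in knockout (median 1.30), Cyc1 being the exception there at 0.25 (SE 0.16, adjusted p = 0.20). With quantile normalization 8 of the 9 were called in wild type. All 4 complex II genes were higher in both genotypes. Of all genes tested 44.5% were higher in wild type and 39.5% in knockout.

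At the other end were members lower in polysomal than in total RNA. Uqcr10, a small subunit of complex III, read 10.53, 10.65 and 10.69 on total and 8.21 and 8.85 on polysomal wild-type arrays, and was lower by -2.09 (SE 0.18, adjusted p = 3.2e-06). Cox6b2 passed the filter only through total RNA, where it read 5.28 to 6.48. Its polysomal values, 2.67 and 2.76 in wild type and 2.86 to 3.27 in knockout, lay near the medians of the untested probe sets on those arrays, so it is counted among the lower genes but its size is not given. Cox7a2 (-1.22), Ndufa2 (-1.07), Cox6c (-0.85), Ndufa1 (-0.80) and Cox6a1 (-0.76) were lower in wild type and in knockout. Complex IV was the only complex with a median below 0, -0.40 in wild type (3 higher and 4 lower of 11) and -0.64 in knockout (2 and 6), in the deposited scaling; with quantile normalization the medians of complex IV were -0.59 and -0.96, and that of complex III in knockout turned from 0.14 to -0.08. Over all genes tested 44.5% were higher and 27.9% lower in wild type, and 39.5% and 25.7% in knockout. The complex IV members higher on polysomes in wild type were Cox5b (1.59), Cox4i1 (0.997) and Cox5a (0.58).

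In wild type neither muscle isoform tested passed, while both general partners did. Isoforms were not tested against each other, and Cox7a1, which did not pass, lay further below 0 than Cox6a1, which did. Cox6a1 was lower on polysomes by -0.76 in wild type (SE 0.11, adjusted p = 0.00017), and its muscle isoform Cox6a2 differed by -0.01 (SE 0.10, adjusted p = 0.97). Cox7a1 read 6.18, 6.52 and 7.27 on total and 5.73 and 5.74 on polysomal wild-type arrays, 0.92 below (SE 0.42, adjusted p = 0.071), and was lower by -1.27 in knockout (SE 0.37, adjusted p = 0.013).

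Differences between polysomal and total RNA were smaller in knockout for 45 of the 69 genes (65.2%), a smaller share than over all genes tested (5835 of 8085, 72.2%). The slope of the knockout on the wild-type values across the 69 genes was 0.811 (Pearson r = 0.965), and across all 8085 genes tested 0.684 (r = 0.927). Each genotype has its own arrays, but genes are not independent replicates, and these are descriptions with no test.

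**Figure D4:**
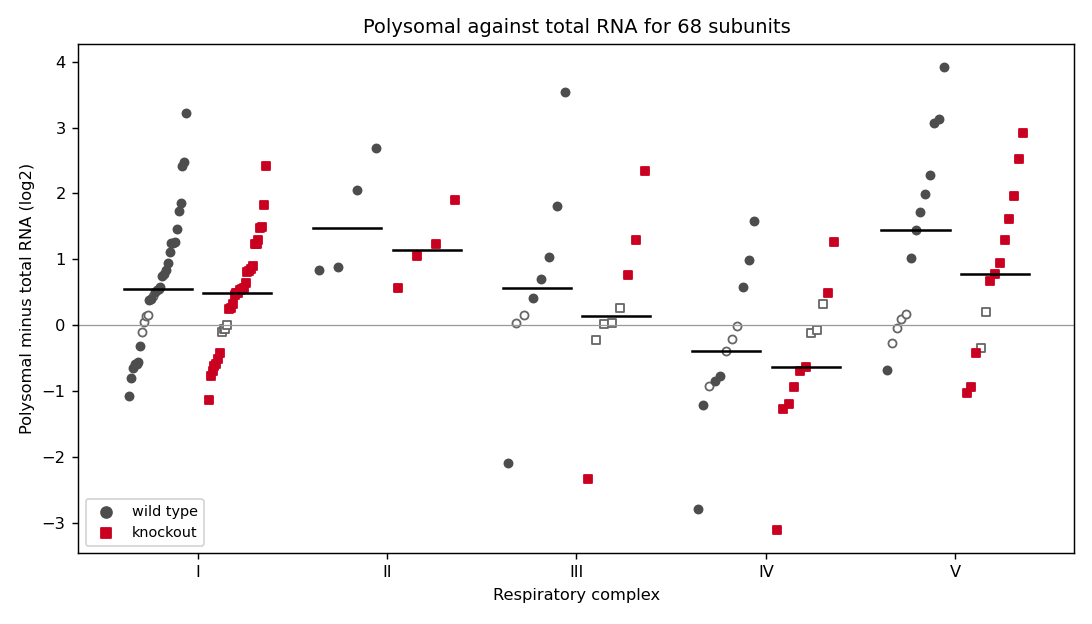
Polysomal minus total RNA (log2, y axis) for 68 of the 69 tested subunits by complex (x axis), circles for wild type and squares for knockout, filled where the adjusted p was under 0.05, with the median of each complex as a bar. Complex II lies wholly above 0 in both genotypes, and complex IV has medians of -0.40 and -0.64.

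Lists of the genes that build and feed the complexes are given beside the shares of all genes tested, which in total RNA were 17.2% higher and 5.97% lower and on polysomes 8.36% and 6.77%. Of 31 tested assembly factors 3 rose (9.68%) and 1 fell (3.23%) in total RNA, with a median of 0.04: Coa3 (0.78, SE 0.12, adjusted p = 0.0027) and Acad9 (0.90, SE 0.16, adjusted p = 0.0050), needed for complexes IV and I, and Uqcc2 (0.63), for complex III, against Cox15 (-0.31), which makes heme a. On polysomes 4 rose (12.9%) and none fell, led by Ndufaf4 (0.80, SE 0.19, adjusted p = 0.022), a complex I assembly factor. Ucp2, an inner membrane carrier, rose by 1.30 in total RNA (SE 0.16, adjusted p = 0.0010), with 10.02 to 10.64 in wild type and 11.54 to 11.75 in knockout, and had an interaction of -1.34 (SE 0.24, adjusted p = 0.0067). Atpif1, the inhibitor of the ATP synthase, rose on polysomes by 0.54 (SE 0.13, adjusted p = 0.023). They were the only calls of 5 tested inner membrane carriers and inhibitor in those comparisons.

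Fuel pathways gave small counts, near those shares in total RNA. Of 17 citric acid cycle and pyruvate dehydrogenase genes 3 rose in total RNA (17.6%, beside 17.2% of all genes), Ogdh (0.64), Idh2 (0.87) and Suclg1 (0.76), and on polysomes 1 rose and 2 fell. Of 12 fatty acid oxidation genes 3 rose in total RNA (25.0%), Acadvl (0.73), Echs1 (1.29) and Acaa2 (0.62), and on polysomes none was called in either direction. Of 12 mobile carriers and quinone synthesis genes 2 rose and 1 fell (8.33%) in total RNA, Etfb (0.82) and Coq7 (0.30) against Coq10b (-1.25), and on polysomes 3 fell (25.0%, beside 6.77% of all genes), led by Coq8b (-1.06, SE 0.21, adjusted p = 0.011), a kinase-like protein of quinone synthesis. Of 9 regulators of mitochondrial genes, Polg, the mitochondrial DNA polymerase, was the only call in total RNA (0.64), and 2 of the 9 rose on polysomes (22.2%, beside 8.36% of all genes). Tfam, which packages and transcribes mitochondrial DNA, read 8.74 and 8.77 on wild-type and 9.12, 9.20 and 9.25 on knockout polysomal arrays, and rose there by 0.44 (SE 0.10, adjusted p = 0.021), with an interaction of 0.57 (SE 0.14, adjusted p = 0.020).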

How the data were processed

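Lung RNA was measured in 11 arrays in 4 groups taken from the labels. The values deposited by the authors are on a log2 scale, as read from their range, with a single value for each probe set on each array. The submitters' processing notes name GCRMA, a method that removes background, normalizes between arrays and combines probes, without a version. Labelling used 100 ng of RNA and biotin, per the labels' protocols. Probe sets carry RefSeq accessions, and 15228 of 26180 were matched to 1 gene each in the RefSeq table of GRCm38.p6; where a gene had several, the one with the highest mean was used. Nothing was normalized again for the main results.

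limma (version 3.58.1, R 4.3.3) was used to fit group means to the 11 arrays together, leaving 7 residual degrees of freedom, to which the moderation added 2.67, for 5 contrasts, on 13802 probe sets (8085 genes) with a log2 value of at least 5 on at least 2 arrays. The results of 1 member are not reported here by name, and it stays in the counts and medians. Tests were two-sided, at an adjusted p under 0.05, and the scripts were tested on simulated data. The number of arrays limits the precision. Members and gene lists were chosen with earlier results of these data known, so no p-value was taken over a list. The genes named were, per contrast and direction, up to 8 called members with the smallest p, the extremes of each complex, members called against their complex's median, tissue isoforms with their general partners, subunit c genes, the catalytic core, up to 3 genes per pathway or marker list, and the targeted genes; other members were named after their values were seen. Alternatives were other filters, scalings, probe set choices, thresholds, an intensity trend, groups compared alone, the replicate set as a block and leaving out each array. The set letters are shared between groups, but the deviations of same-letter arrays did not all correlate above 0.1, so the letters were not taken as pairs in the main fit. With so few arrays per group this check cannot exclude a batch shared by letter.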

Additional observations from a re-analysis of the deposited data

Results flagged for a closer look

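For 13 subunits the genotype difference on polysomes was lower than in total RNA by a test of the difference itself (the limma interaction, adjusted p under 0.05, 3 and 3 total and 2 and 3 polysomal arrays). Among them were Uqcrc1 (-1.20), Atp5h (-1.11), Atp5d (-1.05), Ndufv1 (-0.92), Ndufs8 (-0.83), Ndufs3 (-0.81), Sdhc (-0.79), Ndufa10 (-0.76), Atp5a1 (-0.70), Cox4i1 (-0.67), Ndufs7 (-0.63) and Atp5k (-0.60). The ATP synthase supplied 4 of them. With 18.8% of members called lower against 14.2% of all genes tested, the count is near the background, while the sizes for single genes, such as that of Atp5d, exceed the spread between arrays.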

How the results depend on the processing

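The direction of the calls in total RNA was higher in every alternative, but their number moved from 29. It was 19 with equal array medians, 18 with the replicate block (set letter within RNA kind), 10 at an adjusted p under 0.01, 13 where at least 1.5-fold was also asked, and 13 to 35 leaving out 1 array. Of all 8085 genes 1393 rose in the main fit. In the same settings 1048, 1134, 633 and 874 did, and 783 to 1460 leaving out 1 array. The 3 polysomal calls became 5 without a filter and 5 with an intensity trend, and 1 with the replicate block across RNA kinds, with the groups compared alone, at 0.01 and at 1.5-fold, with 1 to 7 leaving out 1 array. The 13 interaction calls became 2 at 0.01, with 7 to 17 leaving out 1 array, and 9 under the replicate block within RNA kind. Over all genes the lower interaction calls went from 1151 to 290 at 0.01 and 735 under that block. For polysomal against total RNA the counts stayed within 1.5 times of 54 in wild type and 56 in knockout. Leaving out the second knockout total array gave the fewest calls in total RNA (13), and leaving out the second wild-type polysomal array the fewest interaction calls (7). Quantile normalization turned the polysomal minus total difference of Ndufb10 (-0.41) and Ndufb9 (-0.29) in wild type, and of Ndufa3 (-0.084), Ndufb8 (-0.082), Ndufb9 (-0.36) and Ndufs6 (-0.056) in knockout, all above 0 in the deposited scaling. The interaction has no fit with the groups compared alone. The labels do not say what the set letters mark. A call lost under the replicate block can therefore be neither dismissed nor read as a weaker effect.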

Other observations

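Low genes had single arrays apart from the rest. Cox8b, the muscle and brown fat isoform of subunit 8, was at 5.20 on the first knockout total array and between 1.94 and 3.50 on the other 10. Ucp1, the defining gene of brown fat, was at 4.50 and 6.29 on the second and the third knockout polysomal arrays and at most 2.95 on the others. Both lay outside the tests by subunit, and these values were singled out after they were seen.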
